A study of Sus scrofa with 18 samples.

Results

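Translation initiation factors of cloned pig embryos were taken as the genes whose symbol in the deposited tables begins with EIF1 to EIF6, without the eIF2 kinases, and 41 of 24358 genes met this rule. A further 9 genes are initiation factors by their description or reference name only and were left outside it, among them EIF3C, EIF3M, EIF4G2, EIF5 and EIF5A. Translation initiation factors are the proteins that bring the small ribosomal subunit, the initiator tRNA and the capped end of an mRNA together before the first peptide bond is made. The factors eIF1 and eIF1A hold the small subunit open while it scans for the start codon, eIF2 delivers the initiator tRNA and is recharged by its exchange factor eIF2B, eIF3 is a scaffold of many subunits, and eIF4E, eIF4G and eIF4A bind the cap and unwind the mRNA, until eIF5B joins the large subunit. Embryos of the first cleavages live largely on mRNAs stored in the oocyte, whose translation is held back or released by proteins at the cap and the poly(A) tail, and they begin to transcribe their own genome later, in the pig around the 4-cell stage.

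The RNA-seq data came from cloned pig embryos, made by placing donor cells from ear tissue of Diannan miniature pigs into enucleated oocytes and activating them. Vitrified embryos had been cooled as zygotes to a glass on a Cryotop carrier in ethylene glycol, sucrose and polyvinylpyrrolidone, stored in liquid nitrogen, warmed and cultured, while fresh embryos came from zygotes that were cultured without cooling. There were 3 vitrified and 3 fresh libraries at each of 3 stages, that is 2-cells of 24 h after activation with 4 embryos a library, 4-cells of 48 h with 2 embryos, and blastocysts of 144 h with 1 embryo, 18 libraries in all. All embryos shared nuclear transfer, so no embryo from fertilization was examined, and stage cannot be told apart from hours in culture or from the number of embryos pooled. Levels are given as FPKM, sequenced fragments scaled to transcript length and to the library's mapped fragments, and 0.0001 FPKM is the value listed for a level of 0.

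Each library represents whole embryos, so less RNA per cell and fewer cells of a type cannot be told apart. Stage markers followed the labels: 8 of 8 maternal oocyte transcripts in the files had a median of at least 1 FPKM in 2-cells and in 4-cells and 0 of 8 in blastocysts, whereas 8 of 8 trophectoderm markers did so in blastocysts and 1 of 8 at each earlier stage. None of 7 cumulus cell markers reached 1 FPKM in any library, and the summed level of 8 fibroblast markers stayed between 0.0801 and 8.82 FPKM. SOX2, the 1 inner cell mass marker in the files, stayed under 1 FPKM in all 6 blastocyst libraries. All genes together summed to between 441445 and 496370 FPKM in 2-cell libraries, 529172 and 592355 FPKM in 4-cell libraries, and 640376 and 731543 FPKM in blastocyst libraries. The third vitrified 4-cell library stood apart from the other 4-cell libraries: its mean correlation with them was 0.763, against 0.869 to 0.892 for the others, it had the highest level for 27 of 39 initiation factors tested and for 25% of all genes tested, and its trophectoderm markers summed to 179 FPKM, against 5.81 to 55.95 FPKM in the other 5, whose part in the results was not tested.

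A few factors dominated the family at every stage. The start codon factor EIF1 was the most abundant member throughout, at 883 to 1232 FPKM (median 1126) in 2-cells, 1364 to 4486 FPKM (median 1984) in 4-cells and 646 to 856 FPKM (median 769) in blastocysts. EIF1, the subunit-joining GTPase EIF5B and the EIF1 copy EIF1B ranked highest in 2-cells and 4-cells, and EIF1, the cap inhibitor EIF4EBP1 and EIF6 ranked highest in blastocysts. Of the summed FPKM of the 41 genes, EIF1 held a median of 33.2% in 2-cells, 49.7% in 4-cells and 26.4% in blastocysts. EIF5B held 29.2%, 13.0% and 1.44% at the same stages, and EIF1B held 12.5%, 8.27% and 2.72%. At least 1 FPKM in all 6 libraries of a stage was reached by 29 members in 2-cells, 30 in 4-cells and 36 in blastocysts, and 6, 1 and 3 members stayed under 1 FPKM in all 6.

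**Figure D1:**
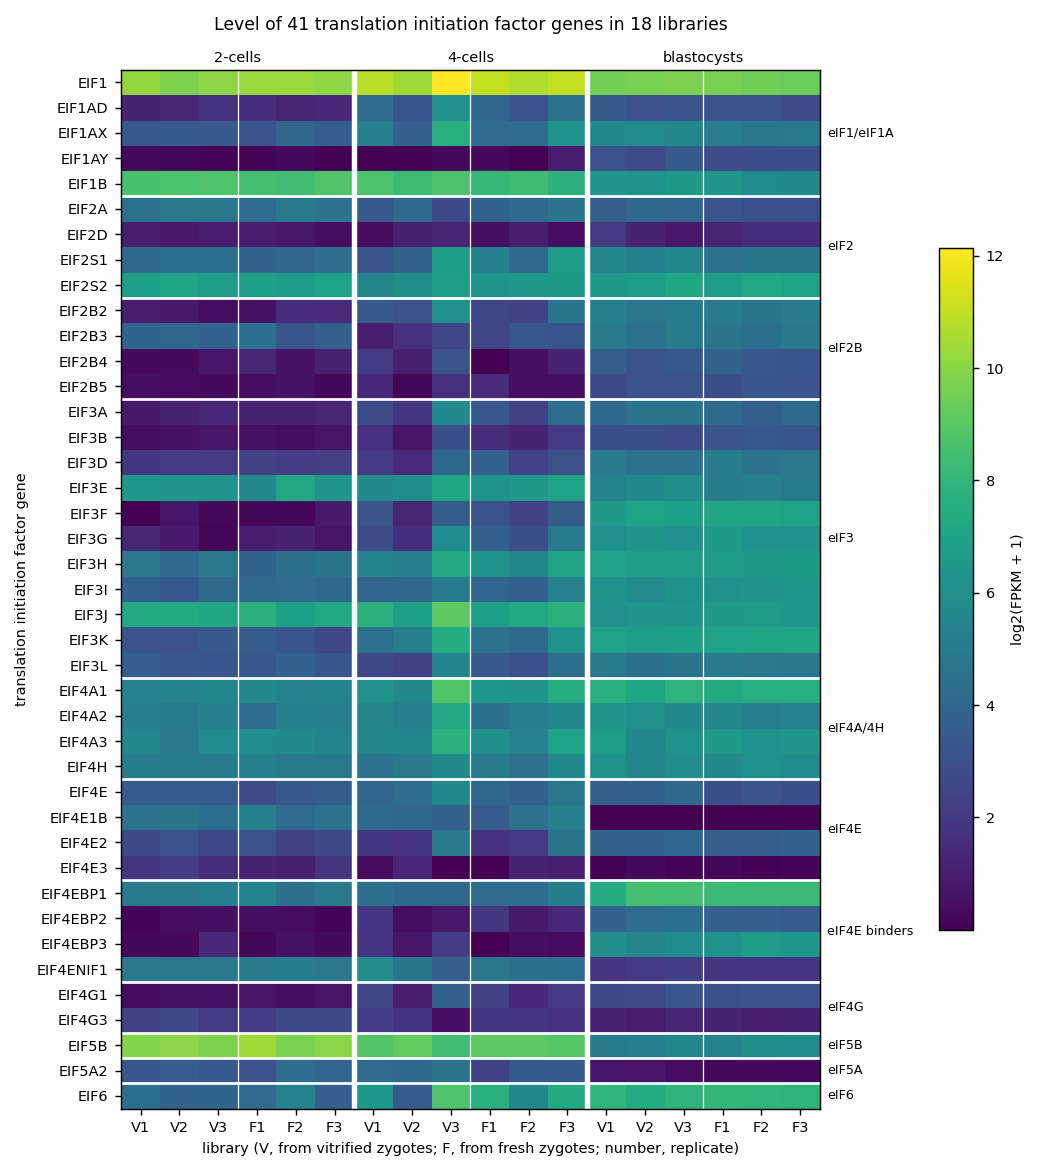
Levels of the 41 initiation factor genes (rows, grouped by role) as log2(FPKM + 1) in the 18 libraries (columns, by stage, with vitrified libraries V1 to V3 left of fresh libraries F1 to F3). EIF1 is the brightest row at each stage, EIF5B and EIF1B are darker in blastocysts than before, most eIF3 and eIF2B rows are brighter in blastocysts, and 4-cell library V3 is the brightest 4-cell column for 27 of 39 tested members.

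Between 2-cells and blastocysts most of the family changed. Of 41 members tested, 21 were higher and 9 lower in blastocysts than in 2-cells at an adjusted p under 0.05 and a log2 fold change beyond 1 in limma. Over all 11361 genes tested 66.4% were called, 27.3% higher and 39.1% lower. The median log2 fold change on the log2(FPKM + 1) scale was 1.34 over the members and -0.45 over all genes. Since the all-gene median depends on scaling, the split was recomputed: 27 members were higher and 6 lower after median ratio scaling, where the median of all genes was -0.03, 25 and 9 after quantile normalization (-0.12), and 20 and 11 with equal FPKM totals (-0.78). Of all 11361 genes, 3846 were higher and 3616 lower, 3704 and 3787, and 2583 and 5187 under these scalings in that order. The members added by median ratio scaling were EIF2B3, EIF2S1, EIF4A2, EIF4A3, EIF4E2 and EIF4H. No called member changed sign under any of these scalings, 26 of the 30 calls held under all 3, and 29 of 30 held in each of 12 fits that left out 1 library.

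The eIF3 subunits made up the largest group, with 9 of 11 members higher and 1 lower in blastocysts than in 2-cells. EIF3F, a subunit with an MPN domain, measured 0.0001 to 0.754 FPKM (median 0.166) in 2-cells, 1.503 to 11.1 FPKM (median 7.64) in 4-cells and 91.1 to 138 FPKM (median 128) in blastocysts. Its blastocyst libraries thus lay far above all earlier libraries (log2 fold change 6.59, SE 0.32, limma adjusted p = 6.31e-12). EIF3G, an RNA-binding subunit, measured 0.148 to 1.51 FPKM (median 0.918) in 2-cells, 1.99 to 59.03 FPKM (median 9.27) in 4-cells and 68.1 to 90.98 FPKM (median 73.2) in blastocysts, and its 2-cell and blastocyst libraries did not overlap (log2 fold change 5.38, SE 0.52, limma adjusted p = 3.99e-08). EIF3K also rose, with 5.004 to 10.6 FPKM (median 8.23) in 2-cells, 17.3 to 179 FPKM (median 28.8) in 4-cells and 110.4 to 137 FPKM (median 128) in blastocysts (log2 fold change 3.84, SE 0.42, limma adjusted p = 1.76e-07). EIF3A, the largest scaffold subunit, measured 0.733 to 1.67 FPKM (median 1.32) in 2-cells, 2.73 to 53.3 FPKM (median 7.43) in 4-cells and 12.2 to 24.5 FPKM (median 17.03) in blastocysts. Its level was thus low in 2-cells and uneven in 4-cells (log2 fold change 3.06, SE 0.48, limma adjusted p = 1.42e-05). The other members that rose were EIF3B (2.51), EIF3D (2.65), EIF3H (2.26), EIF3I (2.25) and EIF3L (1.34), given as log2 fold changes. The call of EIF3L was lost with equal FPKM totals (0.83) and in the vitrified libraries alone (1.30, limma adjusted p = 0.105).

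In contrast to these subunits, EIF3E and EIF3J were most abundant before the blastocyst stage. EIF3E measured 51.7 to 155 FPKM (median 81.2) in 2-cells, 52.6 to 138 FPKM (median 85.2) in 4-cells and 29.3 to 63.3 FPKM (median 39.3) in blastocysts, and it was lower in blastocysts than in 2-cells (log2 fold change -1.005, SE 0.27, limma adjusted p = 0.00278). This call lay at the threshold and was lost after median ratio scaling (-0.34) and quantile normalization (-0.84), and in the vitrified libraries alone (-0.65, limma adjusted p = 0.157). It was also lost without fresh 2-cells replicate 2 (-0.79), fresh blastocysts replicate 3 (-0.96), vitrified 2-cells replicate 1 (-0.99) or vitrified blastocysts replicate 1 (-0.93). EIF3J, a loosely bound subunit at the mRNA channel, measured 118 to 220.3 FPKM (median 159) in 2-cells, 117 to 551 FPKM (median 187) in 4-cells and 68.3 to 104 FPKM (median 84.8) in blastocysts, and its difference between blastocysts and 2-cells did not pass the fold threshold (log2 fold change -0.90, SE 0.29, limma adjusted p = 0.00867). The levels of these 11 subunits were closer to each other at each later stage, with EIF3C and EIF3M, 2 measured subunits outside the symbol rule, not counted. The SD of log2(FPKM + 0.1) over the subunits within a library had a median of 3.01 in 2-cells, 1.94 in 4-cells and 1.32 in blastocysts, and its range over libraries was 2.71 to 3.25, 1.70 to 2.54 and 1.31 to 1.38 at these stages. The median subunit was at 8.19, 10.4 and 70.8 FPKM at the same stages.

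**Figure D2:**
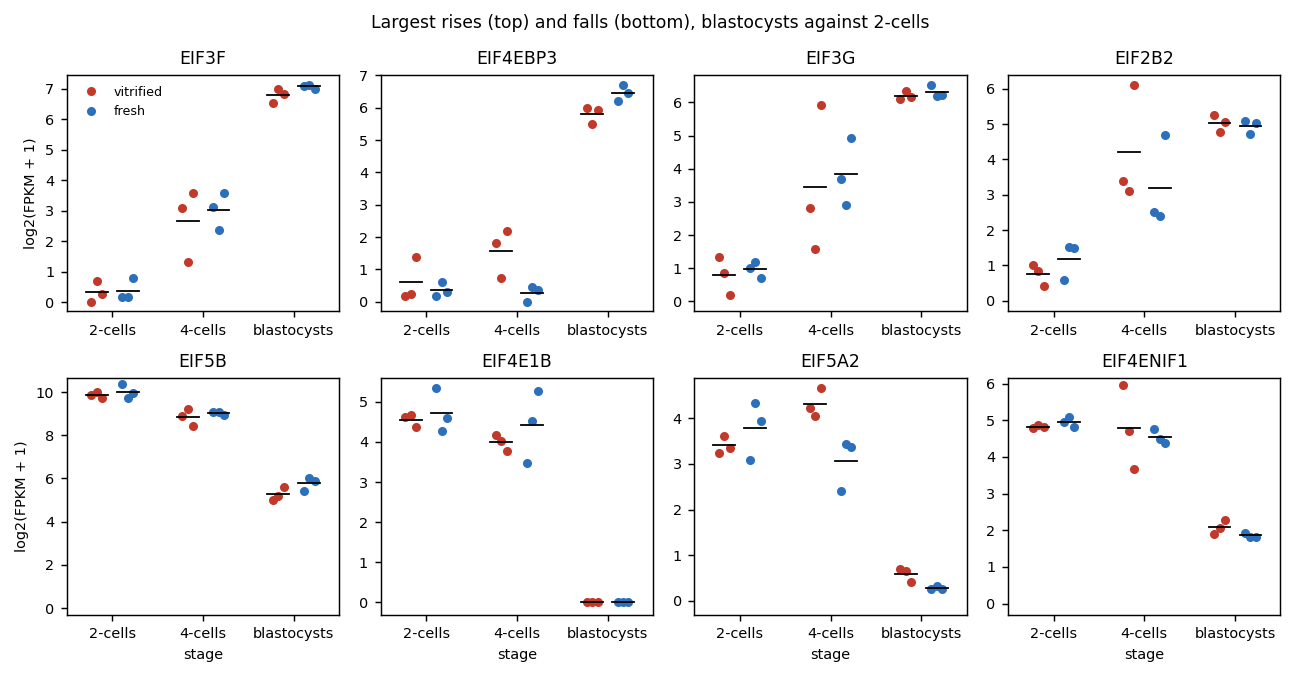
Level as log2(FPKM + 1) in each library by stage, for the 4 members with the largest rise (top) and the 4 with the largest fall (bottom) in blastocysts against 2-cells. Points are libraries, red for vitrified and blue for fresh, and bars are means of 3; EIF3F stayed at or under 0.754 FPKM in 2-cells and reached at least 91.1 FPKM in blastocysts, and EIF4E1B is listed at 0 in the 6 blastocyst libraries.

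Of the 4 members that encode subunits of the exchange factor eIF2B, 3 were higher in blastocysts than in 2-cells. The alpha subunit EIF2B1 lies outside the symbol rule and was not called, at 5.91 to 13.4 FPKM (median 7.94) in blastocysts, against 6.64 to 11.3 FPKM (median 9.16) in 2-cells. EIF2B2 (beta) measured 0.348 to 1.87 FPKM (median 0.908) in 2-cells, 4.29 to 68.6 FPKM (median 8.55) in 4-cells and 25.4 to 37.3 FPKM (median 31.9) in blastocysts, with a wide spread in 4-cells (log2 fold change 4.01, SE 0.46, limma adjusted p = 3.45e-07). EIF2B4 (delta) measured 0.2396 to 1.47 FPKM (median 0.573) in 2-cells, 0.0001 to 8.27 FPKM (median 1.16) in 4-cells and 7.97 to 13.3 FPKM (median 8.96) in blastocysts (log2 fold change 2.70, SE 0.30, limma adjusted p = 2.25e-07), and EIF2B5, the catalytic epsilon subunit, measured 0.1696 to 0.501 FPKM (median 0.3195) in 2-cells, 0.172 to 2.198 FPKM (median 0.987) in 4-cells and 5.24 to 8.61 FPKM (median 7.51) in blastocysts (log2 fold change 2.64, SE 0.24, limma adjusted p = 1.37e-08). None of these 3 exceeded 1.87 FPKM in any 2-cell library. EIF2B3 (gamma) followed another course, with 7.96 to 20.4 FPKM (median 13.4) in 2-cells, 0.951 to 9.08 FPKM (median 4.78) in 4-cells and 20.4 to 30.1 FPKM (median 25.5) in blastocysts. It was lowest in 4-cells, where it fell relative to 2-cells (log2 fold change -1.46, SE 0.27, limma adjusted p = 6.23e-04), and higher in blastocysts than in 4-cells (log2 fold change 2.35, SE 0.27, limma adjusted p = 3.85e-07). In fresh libraries alone the first of these differences was -0.73 and did not pass (limma adjusted p = 0.18). Within a library, the SD of log2(FPKM + 0.1) over these 4 subunits had a median of 2.43 in 2-cells, 2.14 in 4-cells and 1.03 in blastocysts.

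The eIF2 subunit genes within the symbol rule, EIF2S2 and EIF2S1, were not called in blastocysts against 2-cells as deposited. The genes described as subunit 3 and as subunit gamma lie outside the rule and are given below, the former higher in blastocysts than in 2-cells. EIF2S2, the beta subunit, measured 104 to 137 FPKM (median 119) in 2-cells, 46.9 to 110.0 FPKM (median 85.6) in 4-cells and 93.9 to 151 FPKM (median 120.0) in blastocysts and differed little between blastocysts and 2-cells (log2 fold change 0.01, SE 0.21, limma adjusted p = 0.956). EIF2S1, the alpha subunit on which the stress kinases act, measured 13.4 to 20.8 FPKM (median 17.7) in 2-cells, 8.31 to 101 FPKM (median 27.4) in 4-cells and 22.8 to 50 FPKM (median 32.2) in blastocysts. Its blastocyst libraries lay above all 2-cell libraries, but the difference did not pass the test (log2 fold change 0.92, SE 0.47, limma adjusted p = 0.0788). That SE also holds the wide spread in 4-cells, and EIF2S1 was called after median ratio scaling. EIF2A, a separate tRNA-binding factor, was called lower in blastocysts at 6.81 to 15.6 FPKM (median 9.94), against 18.4 to 29.4 FPKM (median 24.9) in 2-cells (log2 fold change -1.18, SE 0.23, limma adjusted p = 1.51e-04). This call was lost after median ratio scaling (-0.55) and quantile normalization (-0.68), and in the vitrified libraries alone (-0.80, limma adjusted p = 0.0852). EIF2D, another factor outside the eIF2 complex, stayed at 0.281 to 3.05 FPKM in all 18 libraries and was not called.

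At the cap, the binding proteins and their inhibitors moved in different directions. EIF4E1B, a cap-binding protein of oocytes and early embryos in mouse and zebrafish, measured 18.2 to 39.3 FPKM (median 23.4) in 2-cells and 10.04 to 37.8 FPKM (median 16.3) in 4-cells and was listed at 0 in all 6 blastocyst libraries. It passed the test in blastocysts against both earlier stages (limma adjusted p = 3.10e-11 against 2-cells and 1.43e-10 against 4-cells), and no fold is given because the lower group is at 0. EIF4E, the general cap-binding protein, measured 5.77 to 10.9 FPKM (median 10.3) in 2-cells, 12.6 to 52.8 FPKM (median 17.5) in 4-cells and 6.44 to 15.7 FPKM (median 10.2) in blastocysts and did not differ past the threshold between blastocysts and 2-cells (log2 fold change 0.05, SE 0.27, limma adjusted p = 0.868). EIF4E3 fell to 0.0282 to 0.183 FPKM (median 0.0912) in blastocysts, against 1.09 to 3.51 FPKM (median 2.26) in 2-cells (log2 fold change -1.48, SE 0.24, limma adjusted p = 1.92e-05). EIF4E2, a cap-binding protein known as a repressor, measured 4.14 to 7.67 FPKM in 2-cells, 2.30 to 31.8 FPKM in 4-cells and 11.7 to 14.7 FPKM in blastocysts. Its blastocyst libraries lay above all 2-cell libraries, but it was not called (log2 fold change 1.07, SE 0.51, limma adjusted p = 0.0628). That SE also holds the wide spread in 4-cells, and EIF4E2 was called after median ratio scaling.

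All 3 genes of the 4E-BP inhibitors, which block eIF4G from eIF4E when unphosphorylated, were higher in blastocysts. EIF4EBP3 measured 0.125 to 1.61 FPKM (median 0.203) in 2-cells, 0.0001 to 3.57 FPKM (median 0.512) in 4-cells and 44.2 to 102 FPKM (median 67.4) in blastocysts, and no blastocyst library overlapped an earlier one (log2 fold change 5.65, SE 0.26, limma adjusted p = 3.67e-12). EIF4EBP1 measured 21.3 to 43.9 FPKM (median 30.96) in 2-cells, 15.99 to 32.7 FPKM (median 18.9) in 4-cells and 174 to 373 FPKM (median 299.7) in blastocysts (log2 fold change 3.18, SE 0.23, limma adjusted p = 1.10e-09), and EIF4EBP2 measured 0.08403 to 0.39 FPKM (median 0.324) in 2-cells, 0.388 to 2.86 FPKM (median 1.18) in 4-cells and 10.5 to 20.3 FPKM (median 13.1) in blastocysts (log2 fold change 3.60, SE 0.24, limma adjusted p = 3.21e-10). All 3 were called higher in blastocysts than in 4-cells, and none of the 3 was called in 4-cells against 2-cells. The log2(FPKM + 1) scale of these calls understates changes of low genes. The median of EIF4EBP2 had already risen from 0.324 FPKM in 2-cells to 1.18 FPKM in 4-cells, so part of its rise came before the blastocyst stage. EIF4ENIF1, the eIF4E transporter found in repressed RNA granules of oocytes, went the other way, with 26.7 to 33.1 FPKM (median 27.7) in 2-cells, 11.8 to 61.03 FPKM (median 23.3) in 4-cells and 2.502 to 3.82 FPKM (median 2.77) in blastocysts (log2 fold change -2.92, SE 0.27, limma adjusted p = 2.42e-08).

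The scaffold genes also changed places. EIF4G1, the main scaffold between cap and ribosome, measured 0.277 to 0.568 FPKM (median 0.466) in 2-cells, 0.881 to 12.2 FPKM (median 3.604) in 4-cells and 5.58 to 8.704 FPKM (median 7.12) in blastocysts (log2 fold change 2.45, SE 0.33, limma adjusted p = 2.52e-06). Its copy EIF4G3 measured 3.67 to 5.47 FPKM (median 4.62) in 2-cells, 0.411 to 3.41 FPKM (median 2.57) in 4-cells and 0.8996 to 1.403 FPKM (median 1.101) in blastocysts, lower in blastocysts (log2 fold change -1.38, SE 0.23, limma adjusted p = 2.29e-05), although this call was lost after median ratio scaling (-0.94). Among the helicase genes, EIF4A1 rose with 40.2 to 50.9 FPKM (median 42.7) in 2-cells, 50.5 to 456 FPKM (median 86.1) in 4-cells and 140.3 to 231 FPKM (median 194) in blastocysts (log2 fold change 2.06, SE 0.40, limma adjusted p = 1.30e-04). EIF4A2, EIF4A3 (a core protein of the exon junction complex) and the eIF4A cofactor EIF4H had log2 fold changes of 0.71, 0.72 and 0.93 and were not called.

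The largest falls outside the cap group were of EIF5B and EIF5A2. EIF5B, the GTPase that joins the ribosomal subunits, measured 837 to 1344 FPKM (median 962) in 2-cells, 339 to 586 FPKM (median 515) in 4-cells and 31.5 to 64.4 FPKM (median 44.6) in blastocysts, stepping down at each stage with no overlap between any of the 3 (log2 fold change -4.42, SE 0.19, limma adjusted p = 1.65e-12). EIF5A2, a second gene for the hypusine-bearing factor eIF5A, measured 7.52 to 19.3 FPKM (median 10.2) in 2-cells, 4.296 to 24.4 FPKM (median 12.7) in 4-cells and 0.189 to 0.624 FPKM (median 0.286) in blastocysts (log2 fold change -3.17, SE 0.23, limma adjusted p = 1.12e-09). No blastocyst library of either gene reached the lowest level of the earlier stages. EIF1B measured 335 to 456 FPKM (median 398) in 2-cells, 224 to 429.9 FPKM (median 322) in 4-cells and 52.1 to 90.4 FPKM (median 77.9) in blastocysts and fell as well (log2 fold change -2.45, SE 0.18, limma adjusted p = 9.12e-10). EIF6, which keeps the ribosomal subunits apart and serves in the making of the large subunit, rose instead, with 11.3 to 40.6 FPKM (median 16.1) in 2-cells, 10.1 to 442 FPKM (median 129) in 4-cells and 178 to 261 FPKM (median 245) in blastocysts (log2 fold change 3.65, SE 0.63, limma adjusted p = 3.89e-05). The eIF1A-related members rose: EIF1AX had a log2 fold change of 1.87, EIF1AD (an eIF1A-like gene) of 1.70 and EIF1AY of 2.84, the last of these at 6.09 to 9.79 FPKM (median 6.47) in blastocysts, against 0.0001 to 0.1902 FPKM (median 0.102) in 2-cells. EIF1 and EIF1B, EIF1AX and EIF1AY, and EIF4A1 and EIF4A2 are close copies, and how reads shared by such copies were divided is not given in the sources used here, so their separate levels are uncertain.

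**Figure D3:**
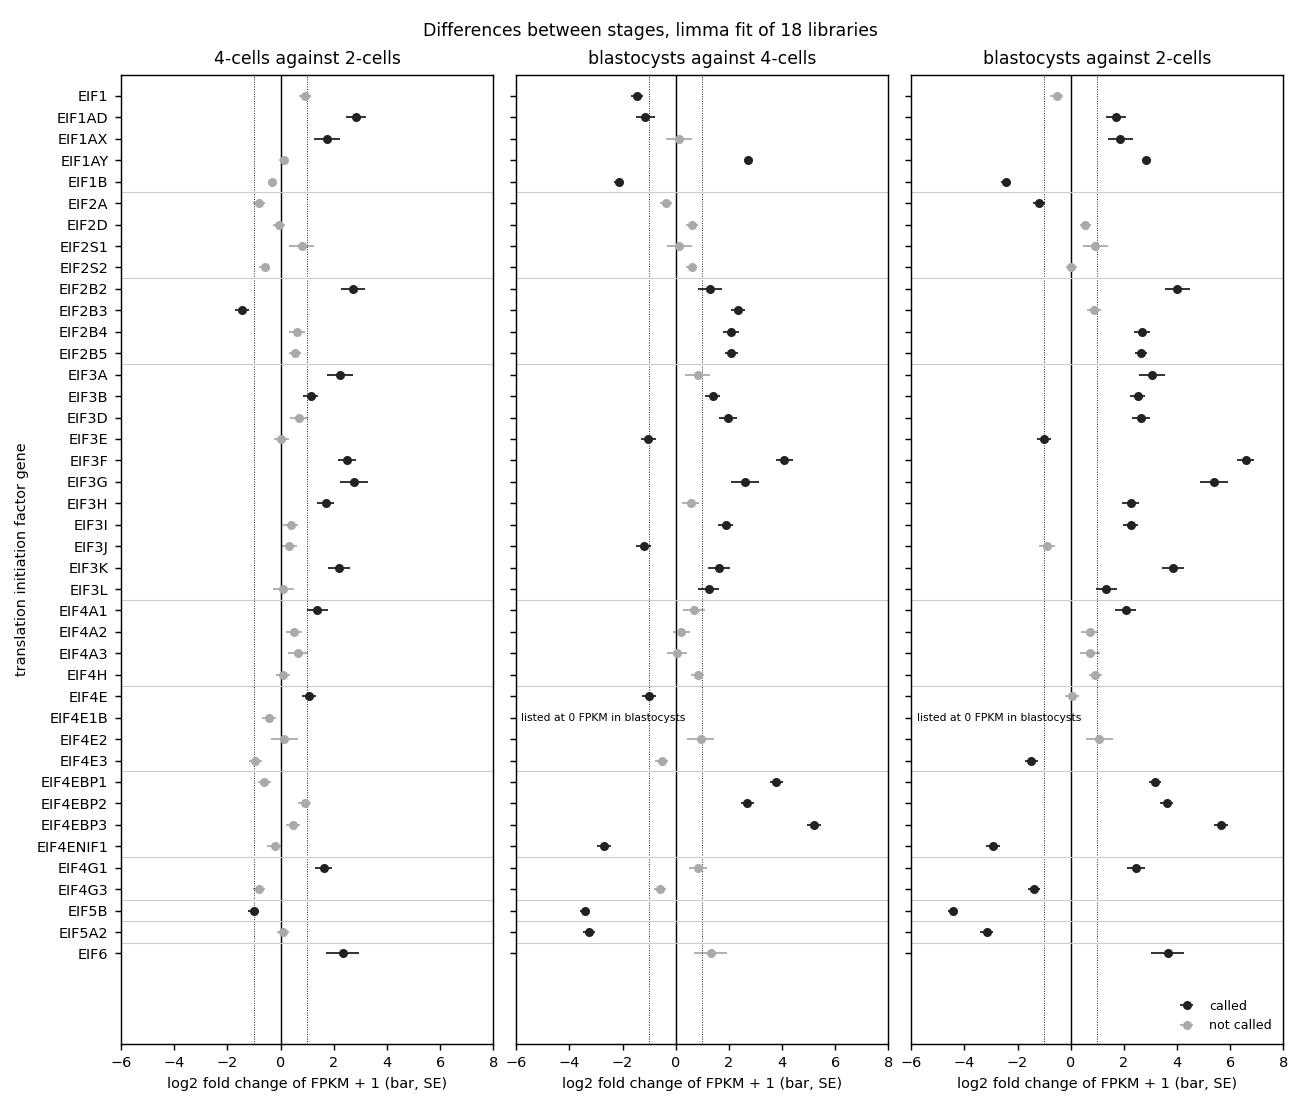
Log2 fold change on the log2(FPKM + 1) scale with its SE for the 41 members in the 3 stage comparisons, from limma over 18 libraries; black points passed an adjusted p under 0.05 and a change beyond 1 (dotted lines), grey points did not. EIF4E1B is listed at 0 in blastocysts and has no point there; 15, 25 and 30 members were called from left to right, with EIF4E1B counted in the comparisons with blastocysts.

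The comparison of 4-cells with 2-cells covered the time around genome activation. Of 41 members 13 were higher and 2 lower in 4-cells, with 16.9% of all genes called, 8.83% higher and 8.09% lower. The largest rises were of EIF1AD at 7.65 to 69.8 FPKM (median 17.3) in 4-cells, against 1.29 to 2.46 FPKM (median 1.53) in 2-cells (log2 fold change 2.83, SE 0.37, limma adjusted p = 3.22e-05), EIF3G (log2 fold change 2.76, SE 0.52, limma adjusted p = 8.10e-04), EIF2B2 (log2 fold change 2.72, SE 0.46, limma adjusted p = 3.28e-04) and EIF3F (log2 fold change 2.50, SE 0.32, limma adjusted p = 2.97e-05). Also higher were EIF1AX, EIF3A, EIF3B, EIF3H, EIF3K, EIF4A1, EIF4E, EIF4G1 and EIF6. EIF2B3 and EIF5B (log2 fold change -1.02, SE 0.19, limma adjusted p = 7.79e-04) were the 2 that were lower. The median log2 fold change was 0.50 over the members and -0.06 over all genes. With equal FPKM totals, where the median of all genes was -0.19, 12 members were higher and 4 lower, beside 874 and 1417 of 11361 genes.

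These 4-cell values were uneven, and 1 library carried much of the unevenness. EIF6 measured 89.02, 10.1 and 442 FPKM in the 3 vitrified and 210.4, 45.7 and 169.9 FPKM in the 3 fresh 4-cell libraries. EIF1AX measured 38.4, 12.01 and 196 FPKM in vitrified and 18.2, 18.5 and 72.02 FPKM in fresh 4-cells. EIF3G measured 6.04, 1.99 and 59.03 FPKM in vitrified and 12.01, 6.54 and 29.4 FPKM in fresh 4-cells. In each case the third vitrified library was highest and the second vitrified library was lowest. Of the 21 members higher in blastocysts than in 2-cells, 17 had their highest 4-cell level in the third vitrified library, as did 43.5% of the 3097 genes that were higher in blastocysts. Without that library 11 members were called in 4-cells against 2-cells (10 higher, 1 lower), beside 1566 of 11265 genes (857 higher, 709 lower). EIF3B (0.84), EIF4A1 (0.89), EIF4E (0.80) and EIF5B (-0.92) then fell short of the fold threshold. EIF4E also missed it without fresh 2-cells replicate 1 (0.94) or fresh 4-cells replicate 3 (0.92), and EIF5B without fresh 2-cells replicate 1 (-0.93) or vitrified 2-cells replicate 2 (-0.98). Among the scalings, EIF5B missed it after median ratio scaling (-0.98) and quantile normalization (-0.85), and EIF4E with equal FPKM totals (0.88). In the vitrified libraries alone 9 members were called, and in the fresh libraries alone 12, beside 1526 of 10310 and 1220 of 10489 genes.

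In blastocysts against 4-cells, 15 of 41 members were higher and 10 lower, with 61.8% of all genes called, 24.8% higher and 37% lower. The largest rises were of EIF4EBP3 (log2 fold change 5.20, SE 0.26, limma adjusted p = 1.33e-11), EIF3F (log2 fold change 4.09, SE 0.32, limma adjusted p = 3.37e-09), EIF4EBP1 (log2 fold change 3.79, SE 0.23, limma adjusted p = 1.59e-10) and EIF1AY (log2 fold change 2.73, SE 0.17, limma adjusted p = 1.72e-10). All 4 eIF2B members and 7 of the 11 eIF3 members were higher, but not the eIF2B alpha gene EIF2B1 or the eIF3 genes EIF3C and EIF3M, which lie outside the symbol rule. In the vitrified libraries alone 18 members were called, and in the fresh libraries alone 25, beside 6297 of 10310 and 7012 of 10489 genes. Among the members lost in vitrified libraries were EIF2B2 (0.83), EIF3B (1.12), EIF3K (1.18) and EIF3L (1.22), with limma adjusted p of 0.289, 0.0551, 0.116 and 0.13. With equal FPKM totals EIF2B2 (0.96) and EIF3L (0.91) were lost as well. Beside EIF4E1B, the largest falls were of EIF5B (log2 fold change -3.40, SE 0.19, limma adjusted p = 5.23e-11), EIF5A2 (log2 fold change -3.26, SE 0.23, limma adjusted p = 1.04e-09) and EIF4ENIF1 (log2 fold change -2.70, SE 0.27, limma adjusted p = 8.51e-08). EIF1, which did not differ past the fold threshold between blastocysts and 2-cells, was lower in blastocysts than in 4-cells (log2 fold change -1.46, SE 0.23, limma adjusted p = 1.47e-05), a call lost after median ratio scaling (-0.83). The split became 23 higher and 5 lower after median ratio scaling, 18 and 7 after quantile normalization, and 13 and 10 with equal FPKM totals, where the median of all genes was -0.13, -0.16 and -0.64, against -0.48 as deposited. Of all 11361 genes, 3592 were higher and 3363 lower, 3442 and 3413, and 2405 and 4644 under these scalings in that order. Of the 25 members called, 19 kept their calls in each of 12 fits without 1 library. Without the third vitrified 4-cell library EIF1AD (-0.74), EIF3E (-0.82), EIF3J (-0.92) and EIF4E (-0.75) were short of the threshold, and all 4 also lost their calls after median ratio scaling (-0.56, -0.40, -0.58 and -0.43). Without fresh 4-cells replicate 3 it was EIF1AD (-0.97), EIF3E (-0.94) and EIF4E (-0.87), and without vitrified 4-cells replicate 2 it was EIF3L (0.96) and EIF2B2 (1.01, limma adjusted p = 0.0529). EIF2B2 was lost as well without fresh 4-cells replicate 2 or vitrified 4-cells replicate 1 (1.08 in both), and EIF3E and EIF4E without vitrified blastocysts replicate 1 (-0.95 and -0.98) or fresh blastocysts replicate 3 (-0.99 in both). EIF4E further missed the threshold without fresh blastocysts replicate 1 or vitrified blastocysts replicate 2 (-0.99 in both).

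Over the 3 stages the calls sorted the members into a few courses. The share of all genes in each course was not counted. Of all genes 16.9% were called in 4-cells against 2-cells, 61.8% in blastocysts against 4-cells and 66.4% in blastocysts against 2-cells. A total of 5 members rose at both steps (EIF2B2, EIF3B, EIF3F, EIF3G and EIF3K), 6 were called at the first step and stayed higher, and 9 were called only at the second step and overall. EIF5B was lower at both steps, 5 members were lower after the 4-cell stage and overall (EIF1B, EIF3E, EIF4E1B, EIF4ENIF1 and EIF5A2), and 7 passed no comparison. EIF4E was higher in 4-cells than in 2-cells and lower in blastocysts than in 4-cells.

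Ratios of related factors within a library depend little on its scaling, and 9 pairs were compared between stages, with 27 exact permutation tests in all, two-sided, on the log2 ratio of FPKM + 0.1. An adjusted p under 0.05 was reached by 21 of 27. EIF4G1 over EIF4G3 averaged -3.10 ± 0.37 in 2-cells, 0.64 ± 2.07 in 4-cells and 2.52 ± 0.22 in blastocysts (SD, n = 6 libraries each), so EIF4G3 was the higher of the pair per length in 2-cells and EIF4G1 in blastocysts (difference 5.62, exact permutation p = 0.00216, adjusted p = 0.0039, with 0.00216 the smallest p that 6 against 6 libraries allow). In 4-cells this ratio ran from -1.36 to 4.58, the highest being the third vitrified library. EIF5A over EIF5A2 averaged 7.33 ± 0.59 in blastocysts and -0.28 ± 1.00 in 2-cells (difference 7.61, exact permutation p = 0.00216, adjusted p = 0.0039, n = 6 each). EIF4E over EIF4E1B was 0.24 ± 1.03 in 4-cells and -1.34 ± 0.70 in 2-cells (difference 1.58, exact permutation p = 0.00216, adjusted p = 0.0039, n = 6 each), so the oocyte form was the higher of the pair per length in 2-cells.

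The other 6 pairs follow, each with at least 1 comparison that passed. Beside those given below, EIF4G2 over EIF4G1 passed in blastocysts against 4-cells (exact permutation adjusted p = 0.0039). EIF4E over EIF4E2 passed in blastocysts against 2-cells (0.0123). EIF1 over EIF1B averaged 1.46 ± 0.30 in 2-cells, 2.70 ± 0.57 in 4-cells and 3.39 ± 0.19 in blastocysts (SD, n = 6), and all 3 steps passed, with exact permutation adjusted p of 0.0039, 0.0292 and 0.0039 for 4-cells against 2-cells, blastocysts against 4-cells and blastocysts against 2-cells. EIF4G2 over EIF4G1 fell to 2.84 ± 0.46 in blastocysts, against 6.80 ± 0.42 in 2-cells (exact permutation adjusted p = 0.0039, n = 6). EIF2S1 over EIF2A was 1.73 ± 0.29 in blastocysts and -0.49 ± 0.24 in 2-cells (exact permutation adjusted p = 0.0039, n = 6). In blastocysts the balance thus lay further towards EIF4G1 and EIF2S1 than in 2-cells. EIF4A1 over EIF4A2 was 1.81 ± 0.56 in blastocysts and 0.46 ± 0.50 in 2-cells (exact permutation adjusted p = 0.00974, n = 6). EIF4E over EIF4E2 fell below 0 in blastocysts, at -0.41 ± 0.46, against 1.79 ± 1.12 in 4-cells (exact permutation adjusted p = 0.0039, n = 6). EIF4EBP1 over EIF4EBP2 was 4.34 ± 0.38 in blastocysts and 6.54 ± 0.68 in 2-cells (difference -2.21, exact permutation adjusted p = 0.0039, n = 6), a difference of -0.43 with a pseudocount of 1, which did not pass (adjusted p = 0.0737). In 4-cells against 2-cells this pair (exact permutation adjusted p = 0.0039), EIF4A1 over EIF4A2 (0.0362) and EIF2S1 over EIF2A (0.00974) passed as well. EIF4G2 over EIF4G1 also passed there (0.00974), but not with a pseudocount of 1 (0.107).

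**Figure D4:**
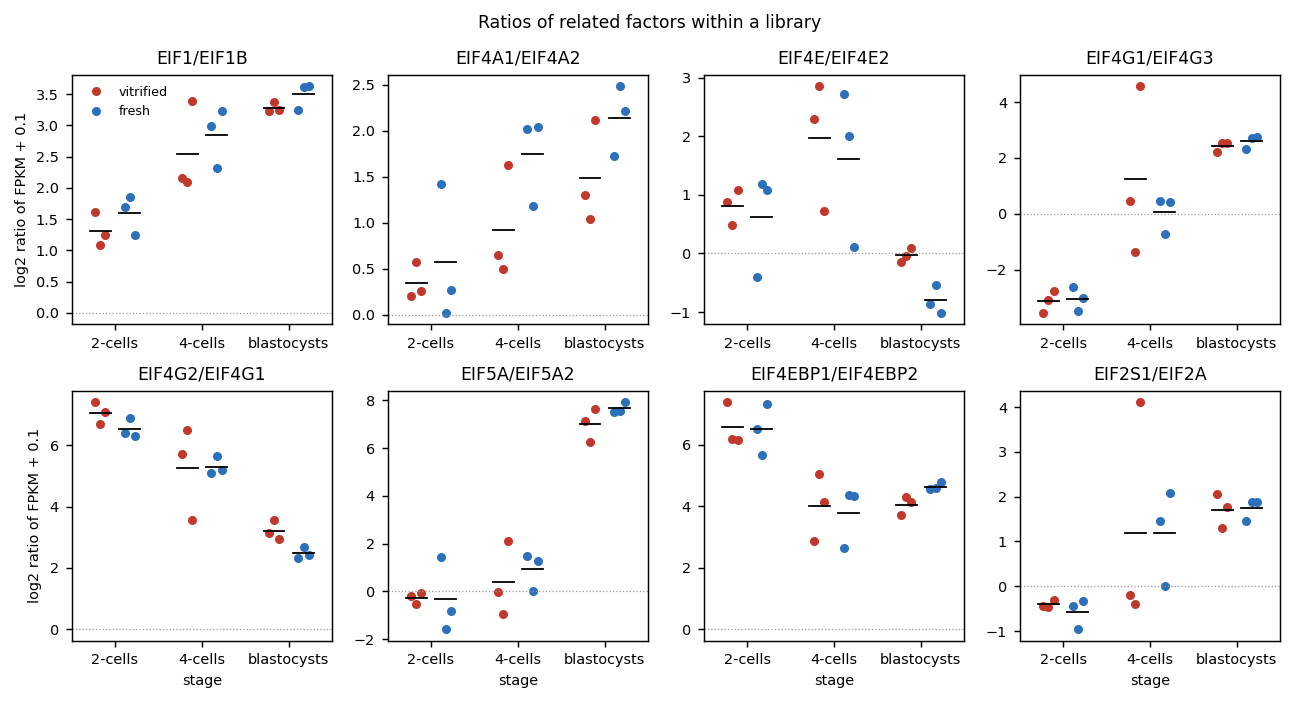
Log2 ratio of FPKM + 0.1 for 8 pairs of related factors in each library by stage; red points are vitrified and blue points fresh libraries, bars are means of 3, and the dotted line at 0 marks equal FPKM. EIF4G1/EIF4G3 averages -3.10 in 2-cells and 2.52 in blastocysts, and EIF5A/EIF5A2 averages -0.28 and 7.33; the pair with EIF4E1B is left out since that gene is listed at 0 in blastocysts.

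Vitrified and fresh embryos were then compared within each stage, at the threshold of the study (unadjusted p under 0.05 and a log2 fold change beyond 1). In 2-cells 0 of 32 members tested were called, and 0 also had an unadjusted p under 0.05 in limma, where 0.45% of 8449 genes were called and 3.75% had such a p. Leaving out 1 library gave 2 members with such a p without fresh replicate 1 (beside 698 of 8214 genes). It gave 1 each without fresh replicate 3 (338 of 8253) or vitrified replicate 3 (177 of 8278). The count of genes called, with the fold threshold, was 116, 73 and 78 without fresh replicates 1, 2 and 3, against 38 in all libraries. Log2 fold changes of the members ran from -0.43 (EIF2B2) to 0.49 (EIF4E3). EIF1 measured 1166, 883 and 1051 FPKM in vitrified and 1232, 1208 and 1085 FPKM in fresh 2-cells, which overlapped. EIF5B measured 932, 1038 and 856 FPKM in vitrified and 1344, 837 and 991 FPKM in fresh 2-cells, and these overlapped too. EIF3D was the 1 member whose vitrified libraries all lay below the fresh ones, at 2.73, 3.26 and 3.02 FPKM in vitrified and 4.16, 3.54 and 3.87 FPKM in fresh 2-cells, while 5.72% of genes had that arrangement.

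In 4-cells, vitrification went with calls for 3 of 39 members, of which 2 were higher and 1 was lower, beside 3.46% of 8769 genes (0.992% higher and 2.46% lower). None of the 3 had an adjusted p under 0.05, and 1 gene in all did. EIF5A2 measured 17.8, 15.5 and 24.4 FPKM in vitrified and 4.296, 9.86 and 9.35 FPKM in fresh 4-cells, so the groups did not overlap (log2 fold change 1.24, SE 0.48, unadjusted p = 0.0281, limma adjusted p = 0.947). It was the 1 of 39 members tested that was arranged so, against 2.81% of genes. EIF4EBP3, left out by the filter on low values, was arranged likewise, at 2.53, 0.649 and 3.57 FPKM in vitrified and 0.0001, 0.375 and 0.294 FPKM in fresh 4-cells. It was called higher without that filter (log2 fold change 1.30, unadjusted p = 0.0269, limma adjusted p = 0.878). In the 18-library fit it was called too (unadjusted p = 0.00278, limma adjusted p = 0.125). EIF2B4 measured 3.53, 1.105 and 8.27 FPKM in vitrified and 0.0001, 0.416 and 1.23 FPKM in fresh 4-cells, with overlap at the low end (log2 fold change 1.60, SE 0.58, unadjusted p = 0.0217, limma adjusted p = 0.947). EIF2B3 measured 0.951, 2.098 and 4.82 FPKM in vitrified and 4.73, 9.08 and 8.39 FPKM in fresh 4-cells, where the highest vitrified library exceeded the lowest fresh one (log2 fold change -1.32, SE 0.53, unadjusted p = 0.0333, limma adjusted p = 0.947). The genes of 2 subunits of the same exchange factor thus had opposite signs.

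None of these 3 calls held in each of the 6 fits without 1 library, which gave 1 to 5 calls. The all-gene count of 303 was 166 and 152 without fresh replicates 1 and 2 and 722 without vitrified replicate 2. EIF5A2 was lost without fresh 4-cells replicate 1 or vitrified 4-cells replicate 1, EIF2B4 without fresh replicate 1, fresh replicate 2 or vitrified replicate 3, and EIF2B3 without fresh replicate 2, fresh replicate 3, vitrified replicate 1 or vitrified replicate 2. Without vitrified 4-cells replicate 3, EIF2S1 (-1.85), EIF3D (-1.33) and EIF3G (-1.65) were called lower in vitrified 4-cells instead, in addition to EIF2B3 and EIF5A2. With replicate number entered as a block, 4 members were called (3 higher, 1 lower), EIF2B2 being added at 1.00 (unadjusted p = 0.0432, limma adjusted p = 0.725), and 486 genes were called in place of 303. Among all genes the split also depended on scaling, with 87 higher and 216 lower as deposited and 144 higher and 136 lower after median ratio scaling, whereas among the members EIF2B3 lost its call and EIF2B4 and EIF5A2 did not.

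In blastocysts 0 of 38 members tested were called, beside 2.26% of 7833 genes, but 8 had an unadjusted p under 0.05, 7 higher and 1 lower, as had 16.2% of genes (12.9% higher and 3.29% lower). That number of members was 2 in the 18-library fit, 11 after median ratio scaling and 5 without fresh blastocysts replicate 2, and between 6 and 9 without any other single library. The number of genes with such a p was 690 of 11361, 1130 of 7833 and 783 of 7616, and between 740 and 1512, in the same order. The all-gene count of calls was 293 without vitrified blastocysts replicate 3. Among all genes the calls were 117 higher and 60 lower as deposited but 53 higher and 92 lower after median ratio scaling, while the 8 members kept their signs under each scaling. EIF2S1 measured 49.3, 38.9 and 50 FPKM in vitrified and 22.8, 25.4 and 25.2 FPKM in fresh blastocysts (log2 fold change 0.88, SE 0.17, unadjusted p = 0.00104, limma adjusted p = 0.115). EIF4E measured 12.3, 12.8 and 15.7 FPKM in vitrified and 6.52, 8.06 and 6.44 FPKM in fresh blastocysts (log2 fold change 0.87, SE 0.19, unadjusted p = 0.002, limma adjusted p = 0.129). EIF2A measured 11.7, 15.6 and 14.7 FPKM in vitrified and 8.21, 6.82 and 6.81 FPKM in fresh blastocysts (log2 fold change 0.85, SE 0.19, unadjusted p = 0.00236, limma adjusted p = 0.129). In all 3 the vitrified libraries lay above the fresh ones, by less than the fold threshold and without passing adjustment. EIF1AX measured 52.4, 57.04 and 48.97 FPKM in vitrified and 35.8, 26.3 and 29.3 FPKM in fresh blastocysts, again without overlap (log2 fold change 0.78, SE 0.18, unadjusted p = 0.00248, limma adjusted p = 0.13). EIF4A2 (0.70), EIF3E (0.65) and EIF4EBP2 (0.50) had positive log2 fold changes at an unadjusted p under 0.05, and EIF4EBP3 a negative one, at 62.4, 44.2 and 59.3 FPKM in vitrified and 72.5, 102 and 86.98 FPKM in fresh blastocysts (log2 fold change -0.65, SE 0.21, unadjusted p = 0.0141, limma adjusted p = 0.201).

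The arrangement of libraries in blastocysts was counted as well. The vitrified libraries lay all above the fresh ones for 9 of 38 members, against 17.3% of genes, and all below for 5 (EIF3B, EIF3F, EIF3J, EIF3K and EIF4EBP3), against 5.27%. EIF3F, for example, measured 91.1, 127 and 114 FPKM in vitrified and 137, 138 and 128 FPKM in fresh blastocysts (-0.29 on the log2 scale). The summed trophectoderm markers of these libraries did not overlap either, at 2100 to 3485 FPKM in vitrified and 3714 to 4119 FPKM in fresh blastocysts. The hypoblast markers summed to 20.7 to 23.7 FPKM in vitrified and 15.3 to 18.2 FPKM in fresh blastocysts. Gene by gene, 0 of 8 trophectoderm markers were called (median log2 fold change -0.13). Of 3 hypoblast markers tested, 0 were called higher and 1, PDGFRA, lower (median -0.03), so these sums do not stand for each marker. Their part in the levels of the initiation factors was not tested.

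**Figure D5:**
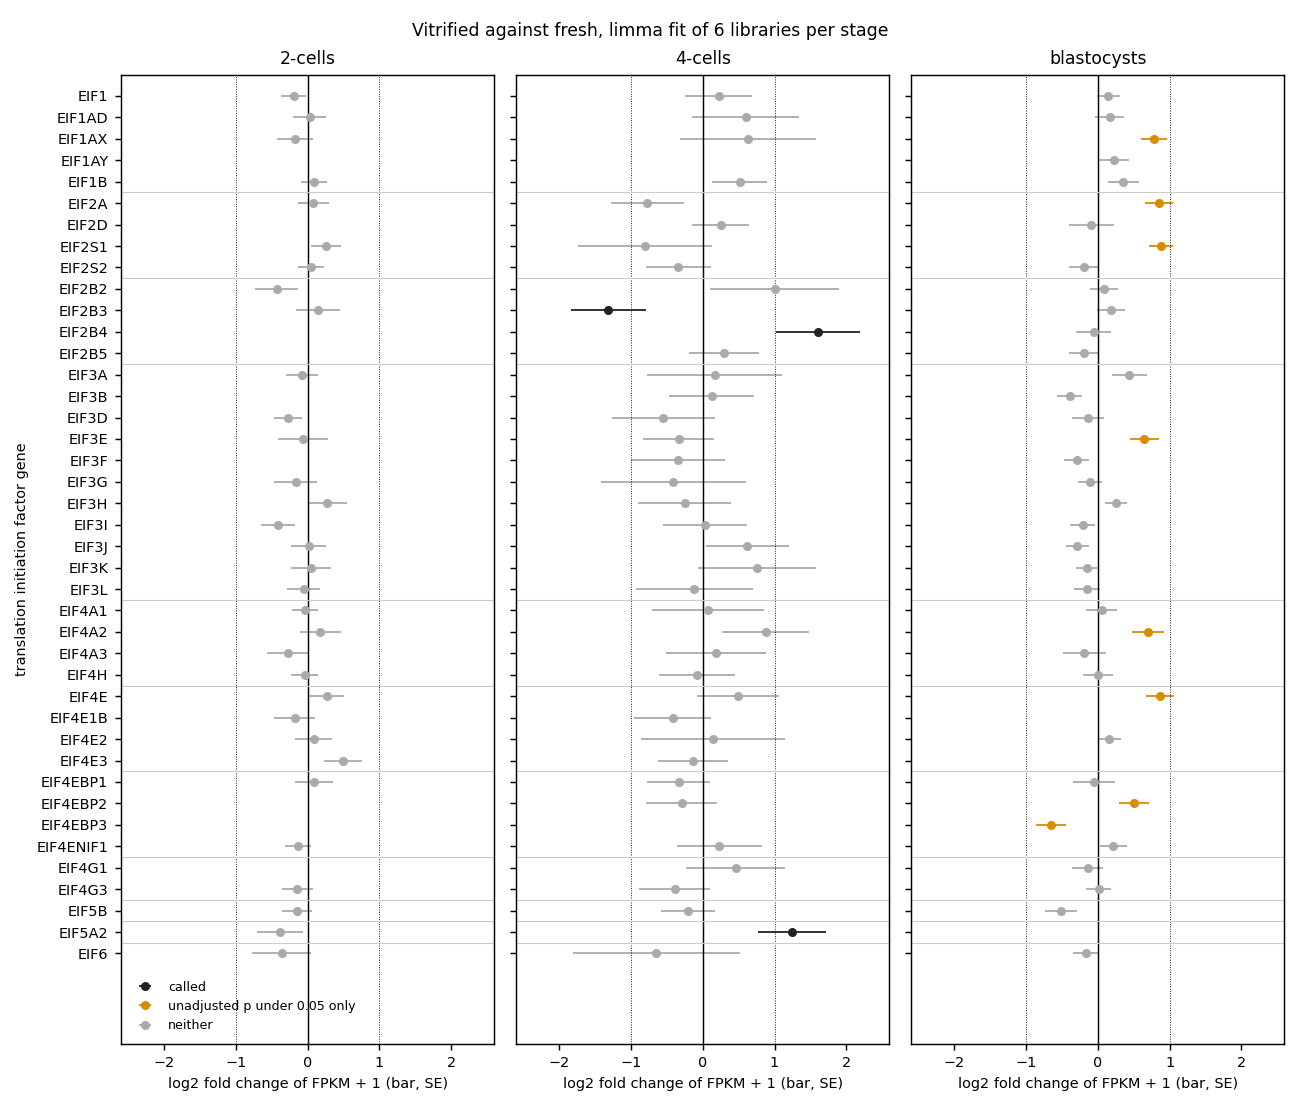
Log2 fold change of vitrified against fresh embryos with its SE for the members tested at each stage (32, 39 and 38), from limma on log2(FPKM + 1) in 6 libraries. Black points (EIF2B3, EIF2B4 and EIF5A2 in 4-cells) passed the threshold of the study, orange points had an unadjusted p under 0.05 only, and grey points neither; SE bars are widest in 4-cells.

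Whether the effect of vitrification differed between stages was tested with interaction terms over all 18 libraries. None of the 41 members had an adjusted p under 0.05 in any of the 3 terms, where 2, 3 and 2 of 11361 genes did (0.0176%, 0.0264% and 0.0176%), and 3, 4 and 0 members had an unadjusted p under 0.05 for 4-cells minus 2-cells, blastocysts minus 4-cells and blastocysts minus 2-cells. Over all 11361 genes 836, 1293 and 362 had such an unadjusted p. These numbers of members depended on single 4-cell libraries: for 4-cells minus 2-cells it was 10 without vitrified 4-cells replicate 2 or 3, and for blastocysts minus 4-cells it was 9 and 13 without these and 8 without fresh 4-cells replicate 2. The numbers of genes moved as well. Without vitrified 4-cells replicate 2 they were 1840 and 2206 of 11301 in these terms. Without vitrified 4-cells replicate 3 they were 1101 and 1509 of 11265. Without fresh 4-cells replicate 2 it was 1190 of 11298 for blastocysts minus 4-cells. For blastocysts minus 2-cells the number of members was 1 without fresh 2-cells replicate 1, beside 415 of 11281 genes. Without vitrified 4-cells replicate 2, EIF2B4 (4-cells minus 2-cells, 2.70), EIF2A (blastocysts minus 4-cells, 2.00) and EIF4EBP3 (blastocysts minus 4-cells, -2.38) passed, with limma adjusted p of 0.0327, 0.0351 and 0.0351. In that fit 72 and 103 of 11301 genes passed in these terms, against 2 and 3 of 11361 in all libraries. The 9 ratios of related factors gave no adjusted p under 0.05 between vitrified and fresh embryos in 27 exact permutation tests, a design of 3 against 3 libraries that cannot go below p = 0.1.

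The 9 initiation factors outside the symbol rule gave mixed results between stages. EIF5A measured 6.41 to 20.5 FPKM (median 8.08) in 2-cells, 8.01 to 105 FPKM (median 14.9) in 4-cells and 51.1 to 101 FPKM (median 67.4) in blastocysts (blastocysts against 2-cells, log2 fold change 2.78, SE 0.45, limma adjusted p = 2.07e-05). The cap-independent scaffold EIF4G2 measured 52.4 to 74.9 FPKM (median 59.7) in 2-cells, 85.6 to 255 FPKM (median 130.2) in 4-cells and 34.1 to 69.1 FPKM (median 49.4) in blastocysts. It was highest in 4-cells (4-cells against 2-cells, log2 fold change 1.09, SE 0.23, limma adjusted p = 0.00198). EIF4B, the eIF4A cofactor, was higher in blastocysts than in 2-cells (1.64), EIF3M (-1.69) and EIF5 (-1.12) were lower in blastocysts than in 4-cells, and EIF3C and EIF2B1 were not called in any stage comparison. The gene described as subunit 3 of eIF2 was higher in blastocysts than in 2-cells (2.66), and the one described as its subunit gamma, the same subunit by another name, had a log2 fold change of 0.63 and was not called.

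Of the regulators of translation outside the family, 28 of 36 listed genes were tested between stages. In blastocysts against 2-cells 8 were higher and 7 lower, that is 28.6% and 25% of those tested beside 27.3% and 39.1% of all genes, with a median log2 fold change of 0.19. The poly(A)-binding protein PABPC1 was higher, at 67.03 to 144 FPKM (median 92.4) in blastocysts, against 0.254 to 0.712 FPKM (median 0.471) in 2-cells (log2 fold change 6.09, SE 0.29, limma adjusted p = 4.13e-12). Its oocyte counterpart PABPC1L was listed at 0 in all 6 blastocyst libraries, against 5.21 to 23.9 FPKM (median 7.96) in 2-cells, as was PABPN1L, against 6.19 to 50.1 FPKM (median 12.9) in 2-cells. CPEB1, which represses and then polyadenylates stored oocyte mRNAs, fell to 0.0001 to 0.195 FPKM (median 0.0406) in blastocysts, against 66.7 to 83.2 FPKM (median 74.8) in 2-cells (log2 fold change -6.17, SE 0.32, limma adjusted p = 1.25e-11). PAIP1, which links PABPC1 to eIF4A, fell to 7.28 to 18.4 FPKM (median 11.3) in blastocysts, against 322 to 690.3 FPKM (median 549.7) in 2-cells (log2 fold change -5.38, SE 0.37, limma adjusted p = 4.23e-10). PDCD4, an inhibitor of eIF4A, was lower too (-3.59), as were CPEB4 (-1.09) and the helicase DDX3X (-1.82).

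Regulators that act around eIF2 differed among themselves. ATF4, the transcription factor translated when eIF2 is phosphorylated, measured 42.1 to 57.9 FPKM (median 50.8) in blastocysts and 2.58 to 4.73 FPKM (median 3.42) in 2-cells (log2 fold change 3.50, SE 0.24, limma adjusted p = 3.55e-10). Of 3 eIF2 kinases tested, EIF2AK1 was higher in blastocysts than in 2-cells (2.35), while EIF2AK3 (0.35) and EIF2AK4 (-0.75) did not pass the fold threshold. EIF2AK3 was higher in 4-cells than in 2-cells (1.24) and EIF2AK4 lower in blastocysts than in 4-cells (-1.11). PPP1R15B (2.26), a subunit of the phosphatase that takes the phosphate off eIF2, was higher in blastocysts than in 2-cells as well, as were RPS6 (5.17), a ribosomal protein of the small subunit, PAIP2 (2.19), MKNK2 (1.07) and RPTOR (1.03). In 4-cells against 2-cells 7 regulators were higher and 2 lower (25% and 7.14%, beside 8.83% and 8.09% of all genes), and in blastocysts against 4-cells 5 were higher and 10 lower (17.9% and 35.7%, beside 24.8% and 37%). Between vitrified and fresh embryos the 1 call was PABPN1L in 4-cells, at 6.21 to 7.55 FPKM in vitrified and 2.15 to 3.20 FPKM in fresh 4-cells (log2 fold change 1.11, SE 0.41, unadjusted p = 0.024, limma adjusted p = 0.947), a call lost without vitrified 4-cells replicate 1 or any 1 of the 3 fresh 4-cell libraries.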

How the data were processed

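The paper describes SMART-Seq amplification of cDNA and paired reads, but the protocol in the labels is one for small RNA. Cutadapt, FastQC, Bowtie2, HISAT2 and StringTie were used by the authors for trimming, quality, mapping and quantification. Versions and genome build are not given in the sources used here. The deposited values are FPKM computed by the authors, with 0 listed as 0.0001, and depth per gene is unknown. The deposited tables also hold the authors' fold changes and p-values, which were not used.

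Members, lists and tests were chosen with earlier results of these data known. FPKM were tested as log2(FPKM + 1) by limma 3.58.1 (R 4.3.3, variance trend), for genes of at least 1 FPKM in at least 3 libraries, with Benjamini-Hochberg adjustment over all genes tested. Fold changes on this scale understate those of low genes. Vitrified and fresh embryos were compared in the 6 libraries of a stage, and stages (as the mean of the vitrified and fresh differences) and interactions in all 18. Ratios were tested by exact permutation in scipy 1.17.1. The fits were tested on simulated data. Named were the members called between vitrified and fresh embryos, the 4 largest rises and falls per stage comparison, ratio pairs, the 3 most abundant members per stage, EIF3A, EIF4G1, the eIF2 subunits and EIF6, and called regulators. Values of other members were added after they were seen.

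The paper states 3 biological replicates. Deviations from the group means were correlated between vitrified and fresh libraries of a stage. In 4-cells replicates 1 to 3 had 0.22, 0.37 and 0.42 with the same number, against at most 0.23, -0.03 and -0.11 with other numbers. In blastocysts they had 0.25, 0.05 and 0.0003, against at most 0.04, -0.01 and 0.30. In 2-cells they had 0.03, -0.11 and 0.11, against at most 0.05, 0.09 and 0.05. The blocked fit is given for 4-cells. Alternatives were a pseudocount of 0.1 (of 1 for ratios), no filter, quantile normalization, median ratio scaling, a replicate block, the 18-library fit, 1 treatment only, leaving out each library and, chosen after seeing the data, equal FPKM totals. No sequences are shown.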

Additional observations from a re-analysis of the deposited data

How the results depend on the processing

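Leaving out 1 library at a time gave 0 to 0 called members in vitrified against fresh 2-cells, 1 to 5 in 4-cells and 0 to 0 in blastocysts, 11 to 19 in 4-cells against 2-cells, 23 to 27 in blastocysts against 4-cells, 29 to 31 in blastocysts against 2-cells, 0 to 3 for the interactions, and 19 to 22 of 27 ratio tests. In the vitrified libraries alone 9 members were called in 4-cells against 2-cells, beside 1526 of 10310 genes, and the cause was not tested. In the vitrified or the fresh libraries alone 0 ratio tests passed, since an exact permutation test of 3 against 3 libraries cannot go below 0.1. The other alternatives left these counts within 1.5 times, and no named value changed sign past the threshold. The replicate block gave 15, 25 and 31 called members in the 3 stage comparisons, and changed no call between vitrified and fresh embryos in 2-cells or blastocysts. At no stage did the same replicate number give the highest correlation for every replicate, so how far the numbers pair the libraries is not settled. The number of all genes called between vitrified and fresh embryos moved more: 99 in place of 38 in 2-cells and 363 in place of 177 in blastocysts with a pseudocount of 0.1, and 672 in the 18-library fit in place of 303 in 4-cells. FPKM carry no counts, so the spread between libraries is the only measure of precision.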

Other observations

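Genes for the later steps of translation were listed beside the initiation factors, and 9 of 13 elongation and termination factors were tested between stages. In blastocysts against 2-cells 6 were higher and 2 lower (66.7% and 22.2%, beside 27.3% and 39.1% of all genes), in 4-cells against 2-cells 7 were higher and 0 lower (77.8% and 0%, beside 8.83% and 8.09%), and in blastocysts against 4-cells 3 were higher and 2 lower (33.3% and 22.2%, beside 24.8% and 37%). The elongation factor EEF2 measured 119 to 150.3 FPKM (median 139.6) in blastocysts and 5.44 to 7.701 FPKM (median 6.64) in 2-cells (log2 fold change 4.19, SE 0.36, limma adjusted p = 6.88e-09). EEF1B2, which recharges the factor that delivers tRNA, measured 183 to 265 FPKM (median 206) in blastocysts and 2.85 to 4.84 FPKM (median 4.32) in 2-cells (log2 fold change 5.44, SE 0.43, limma adjusted p = 2.98e-09). The 2 that were lower were the ribosome recycling factor ABCE1 (-1.34) and the ribosome rescue factor HBS1L (-1.21). None of the 9 was called between vitrified and fresh embryos at any stage.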
